A study of Mus musculus with 9 samples.

Results

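The growth factor and cytokine receptors that drive the growth of myeloid progenitors were examined as 10 genes, fixed by name: Kit, Flt3, Csf1r, Csf2ra, Csf2rb, Csf2rb2, Csf3r, Il3ra, Il6ra and Il6st. All 10 were found among the 37980 genes of the table, and all 10 passed the filter on low values that left 11987 genes for testing. RNA was measured in myeloid progenitors (MP, Lin-ckit+Sca1-) sorted from the bone marrow of irradiated C57BL/6 recipients, which had been 8 to 10 weeks old at transplant. The 4 NA MP samples came from recipients of multipotent progenitors (MPPs) that expressed the Nup98-Hoxa10hd fusion gene (NA) and were sorted as Tdtomato+ donor cells; NA was expressed from a Rosa26 LSL allele activated by Vav-Cre, which acts throughout the blood system. The 5 WT MP samples came from recipients of WT MPPs and were sorted as CD45.2+ cells. Recipients of both groups received helper marrow. The study describes its recipients as CD45.2+ and tracked WT donor cells in blood by a different form of that marker. WT MPs of donor, helper and recipient origin therefore cannot be told apart, and they need not be donor cells. NA MPs were all marked donor cells. The labels place the sort of both groups at 3 months after transplant, the study's methods at a later month. Every sample held the same number of sorted cells, and no source says whether a sample was 1 mouse, so p-values measure only the spread between these samples.

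These receptors fall into a few families. Kit, Flt3 and Csf1r are receptor tyrosine kinases that pair when stem cell factor, Flt3 ligand or M-CSF binds, and phosphorylate themselves. Csf3r, the G-CSF receptor, pairs with itself and signals through bound Janus kinases. The receptors of GM-CSF and IL-3 each join a ligand-specific alpha chain (Csf2ra or Il3ra) to a shared signalling beta chain (Csf2rb), and mice carry a second beta chain, Csf2rb2, that serves IL-3 alone. Il6ra binds IL-6 and recruits Il6st (gp130), the signalling chain that IL-11, LIF and oncostatin M receptors also use. Signals from these families reach STAT factors, Ras and phosphatidylinositol kinases and are damped by Socs proteins, phosphatases and the ubiquitin ligase Cbl.

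The values are normalized counts, that is, RSEM read counts per gene divided by 1 factor per sample. Dividing by the value of 1 read (0.827 to 1.2004) gave back 5557718 to 8106140 reads per sample, and 263 to 3610 reads per sample for every receptor except Csf2rb2 (63 to 147) and Il3ra (235 to 392). NA MP replicate 1 stood apart from the other samples on the second principal component (6.12% of the variance) at 20.3, against -8.93 to -3.01 in the other 3 NA MP samples. Of the genes of the sort gate, Kit and Cd34 were present and Cd3e was listed at 0 in all 9 samples. Marker lists of other lineages were counted by the test described below, in which 16.9% of all tested genes were higher and 17.3% lower. For erythroid markers, 12 of 13 tested genes fell and the summed level ran from 6321 to 8010 in NA MP and from 11937 to 13142 in WT MP. For pro-B and pre-B markers, 13 of 13 tested genes rose and the sum ran from 1539 to 2735 against 392 to 430. The filter asked for 10 or more in at least 4 samples. A gene near 0 in WT MP thus entered only if high in NA MP, which fixed its direction. With 10 or more required in every sample, 7 of these genes were tested and all 7 were higher. Of 9 mast cell and basophil markers, 6 rose and 2 fell (sum 3981 to 4562 against 2908 to 3169). Eosinophil markers had 1 higher and 4 lower of 7, monocyte and dendritic markers 5 and 2 of 10, neutrophil markers 6 and 1 of 12, megakaryocyte markers 1 and 2 of 6, and T and NK markers 2 and 0 of 2, with Cd3e and Cd3g at 0 throughout. What part these shifts have in the receptor values was not tested, and in such bulk samples fewer cells of a type and less RNA per cell cannot be told apart.

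Of the 10 receptors, 5 were higher in NA MPs (Flt3, Il3ra and the GM-CSF and IL-3 receptor genes Csf2ra, Csf2rb and Csf2rb2), 2 were lower (Il6ra and Il6st) and 3 did not pass the test (Kit, Csf1r and Csf3r). A gene passed when limma's moderated test on log2(value + 1), adjusted by Benjamini-Hochberg over all tested genes, gave an adjusted p under 0.05, and 34.3% of all tested genes passed it, 16.9% higher and 17.3% lower. The median log2 fold change of the receptors was 0.12, beside -0.0081 over all tested genes. No receptor changed by 2-fold, whereas 307 tested genes were higher and 181 lower by more than 2-fold. In 5 receptors no NA MP sample overlapped the WT MP samples, higher in Flt3, Csf2rb and Csf2rb2 and lower in Il6ra and Il6st; such separation occurred in 26.3% of tested genes. A correction for GC content and length ended the calls of Csf2ra and Il3ra and added Csf3r, with 32.9% of tested genes past the threshold. That left 3 receptors higher and 3 lower, with a median of 0.046. Against a fold of 1.2, only Csf2rb2 (adjusted p = 0.017) and Il6st (adjusted p = 0.039) remained, with 7.15% of tested genes.

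**Figure D1:**
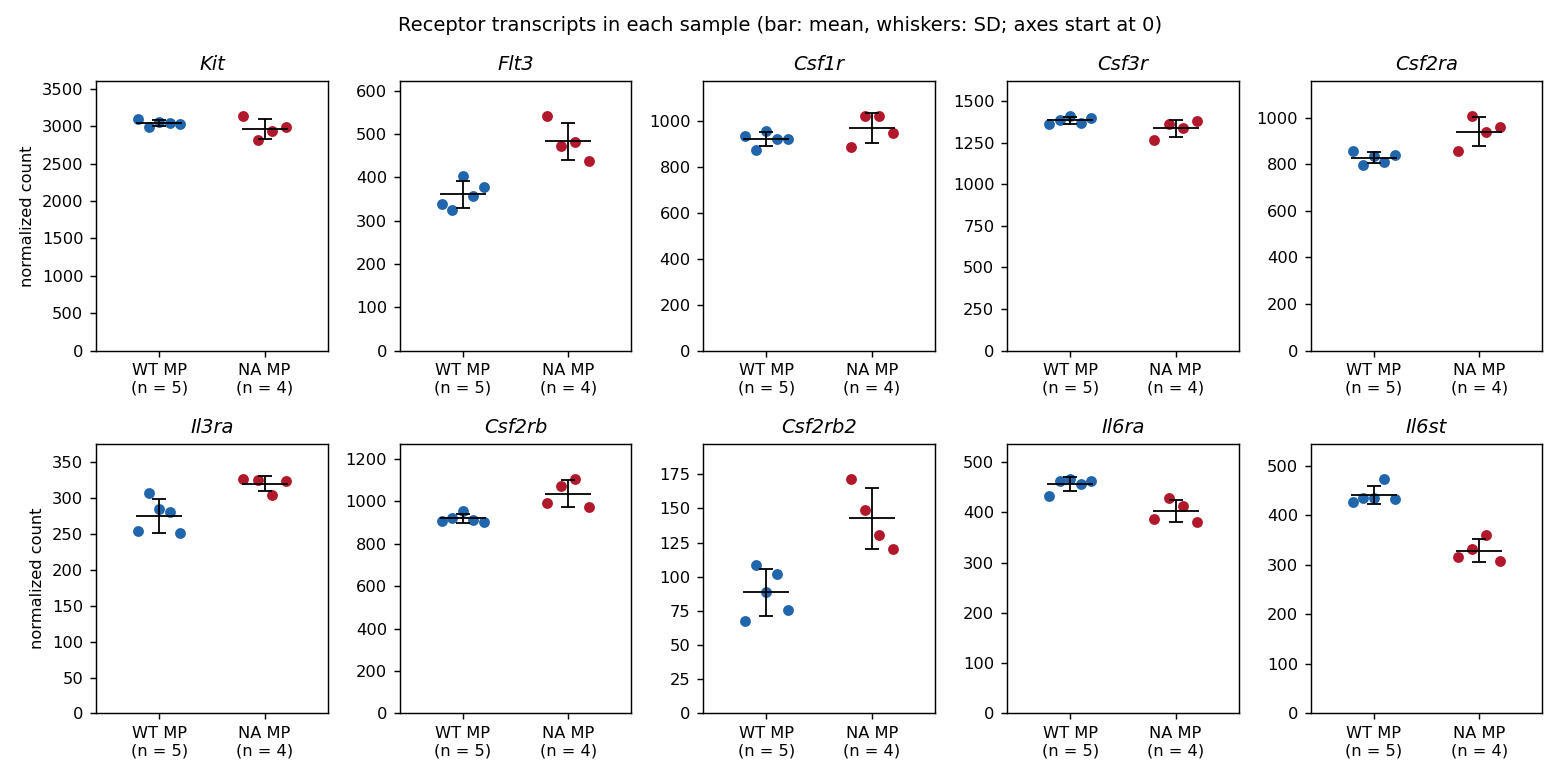
Normalized count of each receptor gene (vertical axes, starting at 0) in the 5 WT MP samples (blue) and the 4 NA MP samples (red), ordered by replicate number, with bars for the mean and whiskers for the SD. The points of Flt3, Csf2rb, Csf2rb2, Il6ra and Il6st separate by group, while those of Kit, Csf1r and Csf3r intermingle. Il6st lies at 307 to 360 in NA MP and 427 to 473 in WT MP.

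Among the receptor tyrosine kinases, Flt3 was the one that rose. Flt3 (ENSMUSG00000042817, chr5:147330741-147400489, minus strand, mm10), which marks early multipotent and lymphoid-primed progenitors, measured 541, 473, 481 and 439 normalized counts in NA MP replicates 1 to 4. In WT MP replicates 1 to 5 it measured 339, 326, 403, 358 and 377. Every NA MP sample lay above every WT MP sample, with the lowest NA MP value 439 and the highest WT MP value 403. The difference was 1.34-fold (95% interval 1.23 to 1.46, log2 fold change 0.42, SE 0.061, adjusted p = 6.57e-07). It stayed past the threshold without any 1 sample, at log2 fold changes from 0.37 to 0.47, but not against a fold of 1.2 (adjusted p = 0.083). Flt3 is also carried by lymphoid progenitors, and the summed pro-B and pre-B markers were higher in the same 4 samples (1539 to 2735 against 392 to 430); their part in the Flt3 values was not tested.

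Kit (ENSMUSG00000005672, chr5:75574916-75656722, plus strand) encodes the stem cell factor receptor, and its protein was part of the sort gate, so its level is conditioned by the gate in both groups. Its values were 3132, 2811, 2929 and 2984 in NA MP. They were 3100, 2984, 3048, 3039 and 3023 in WT MP. Within the spread of the NA MP samples, which included both the highest and the lowest value of the 9, the groups did not separate (log2 fold change -0.04, 95% interval -0.10 to 0.02, adjusted p = 0.353).

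Csf1r (ENSMUSG00000024621, chr18:61100598-61132149, plus strand) is the M-CSF receptor of the monocyte line. It gave 886, 1019, 1019 and 946 normalized counts in NA MP. WT MP samples gave 935, 871, 956, 919 and 919. NA MP replicate 1 fell among the WT MP samples while replicates 2 and 3 exceeded all of them, and the log2 fold change of 0.07 (SE 0.041) did not pass the test (adjusted p = 0.188). Without NA MP replicate 1, Csf1r passed it at 0.11 (adjusted p = 0.0315). Its exons overlap 873 bases of Hmgxb3 on the opposite strand, and no source used here says whether strand was used in counting.

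Csf3r (ENSMUSG00000028859, chr4:126024550-126044440, plus strand), the G-CSF receptor of the neutrophil line, was 1264, 1361, 1339 and 1380 in NA MP. It was 1361, 1384, 1408, 1368 and 1396 in WT MP. Only NA MP replicates 1 and 3 lay under the whole WT MP range, and the log2 fold change of -0.05 (SE 0.034) did not pass the test (adjusted p = 0.263). With GC content and length corrected, Csf3r passed at -0.10 (adjusted p = 0.0131), so its call depended on that step.

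The alpha chains of the GM-CSF and IL-3 receptors were both higher in NA MPs, calls that rest on how GC content and length are treated. Csf2ra (ENSMUSG00000059326, chr19:61223957-61228429, minus strand) measured 855, 1006, 940 and 960 in NA MP. In WT MP it measured 858, 797, 836, 810.5 and 839. Apart from NA MP replicate 1, which sat just under the highest WT MP sample, NA MP values exceeded all WT MP values, and the log2 fold change was 0.18 (SE 0.042, adjusted p = 6.02e-04). Il3ra (ENSMUSG00000068758, chr14:14346275-14356011, plus strand) measured 327, 326, 304 and 324 in NA MP. It measured 254, 307, 284, 280 and 251 in WT MP, so that NA MP replicate 3 and WT MP replicate 2 overlapped. Its log2 fold change was 0.22 (SE 0.063, adjusted p = 0.00517).

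Both alpha chains have short, GC-rich transcripts, with 2871 exonic bases in Csf2ra and 2967 in Il3ra. The GC content over all transcripts of the gene was 62.2% in Csf2ra and 63.4% in Il3ra, against 46.8% to 54.6% in the other receptors. After the correction for GC content and length, Csf2ra differed by 0.05 (adjusted p = 0.350) and Il3ra by 0.07 (adjusted p = 0.409), and neither passed. Leaving out any 1 sample kept both past the threshold. An antisense gene, Gm48860, overlaps 46 exonic bases of Il3ra.

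The beta chains showed the largest rise of the 10 genes, in Csf2rb2. Csf2rb (ENSMUSG00000071713, chr15:78325752-78353847, plus strand) and Csf2rb2 (ENSMUSG00000071714, chr15:78282507-78305721, minus strand) are neighbouring copies on opposite strands, and reads from one could be assigned to the other. Their longest GENCODE M21 coding sequences, 2688 and 2634 bases, were identical at 95.2% of 2628 aligned bases, with a longest identical run of 242 bases. Of all 50-base windows in the Csf2rb coding sequence 26.03% also occur in Csf2rb2, and of all 75-base windows 15.8%. To show how alike the copies are, the most alike and the least alike aligned stretches of 120 bases inside a coding exon of each are printed 5′ to 3′ in the sense of the transcript, with differing bases in capitals. The first pair, at chr15:78348577-78348696 (plus strand) and chr15:78284752-78284871 (minus strand), has 0 differences, and the second, at chr15:78338867-78338986 and chr15:78294345-78294464, has 16.
Csf2rb, most alike: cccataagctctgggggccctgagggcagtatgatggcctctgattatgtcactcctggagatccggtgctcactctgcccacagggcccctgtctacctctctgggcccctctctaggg
Csf2rb2, most alike: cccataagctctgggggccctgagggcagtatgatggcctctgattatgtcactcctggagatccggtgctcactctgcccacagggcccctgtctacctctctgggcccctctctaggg
Csf2rb, least alike: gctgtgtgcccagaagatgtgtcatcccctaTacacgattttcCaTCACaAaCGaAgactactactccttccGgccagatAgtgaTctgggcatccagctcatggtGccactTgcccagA
Csf2rb2, least alike: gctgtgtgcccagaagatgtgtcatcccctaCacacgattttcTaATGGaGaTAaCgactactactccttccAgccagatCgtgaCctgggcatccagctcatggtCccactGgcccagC

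The values of both copies came out as whole reads (within 0.02 of a read) in all 9 samples, as did those of the other 8 receptors. Csf2rb measured 993, 1074, 1106 and 974.5 in NA MP. It measured 908, 920, 955, 911 and 905 in WT MP. The groups did not overlap, with 974.5 the lowest NA MP and 955 the highest WT MP value (log2 fold change 0.17, SE 0.039, adjusted p = 5.86e-04).

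Csf2rb2, at a level far under its copy, measured 172, 149, 130 and 121 in NA MP. The WT MP samples measured 68.0, 109, 88.6, 102 and 75.5. Again the groups did not overlap, and the log2 fold change was 0.69 (SE 0.125, 95% interval of the fold 1.35 to 1.93, adjusted p = 9.53e-05). Without NA MP replicate 1, the highest sample, it was 0.60 and still passed.

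Summing the copies removes the question of how the counted reads were split between them. Whether reads that match both copies were left out of the count is not known, and a sum would not restore them. The sum was 1179 ± 64.2 (SD, n = 4) in NA MP and 1008 ± 29.6 (SD, n = 5) in WT MP, 0.23 higher on the log2 scale (p = 0.0159, exact two-sided permutation test, the smallest p that 4 against 5 samples can give). Csf2rb2 made up 14.7%, 12.2%, 10.5% and 11.02% of the sum in NA MP. It made up 6.97%, 10.6%, 8.496%, 10.1% and 7.70% in WT MP. The share of NA MP replicate 3 was just under that of WT MP replicate 2, and the exact binomial 95% intervals of those shares, which cover counting error only, ran from 8.80% to 12.5% and from 8.88% to 12.4%.

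The IL-6 receptor went the other way, with both chains lower in NA MPs. Il6ra (ENSMUSG00000027947, chr3:89864059-89913196, minus strand), the chain that binds IL-6, measured 386, 428, 413 and 382 in NA MP. It measured 432, 463, 467, 457 and 463 in WT MP. All NA MP samples were under all WT MP samples, with 428 and 432 the nearest values (log2 fold change -0.18, SE 0.051, adjusted p = 0.00447). Gm42809, an antisense gene, overlaps 242 of its exonic bases.

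Il6st (ENSMUSG00000021756, chr13:112464070-112510086, plus strand), the shared signalling chain gp130, fell furthest of the 10. It measured 316, 332, 360 and 307 in NA MP. It measured 427, 435, 435, 473 and 433 in WT MP. The highest NA MP sample stayed well under the lowest WT MP sample, and Il6st fell by 0.42 on the log2 scale (SE 0.055, adjusted p = 3.15e-08). Without any 1 sample the change lay between -0.47 and -0.39, and it was -0.37 (adjusted p = 3.30e-07) after the correction for GC content and length.

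**Figure D2:**
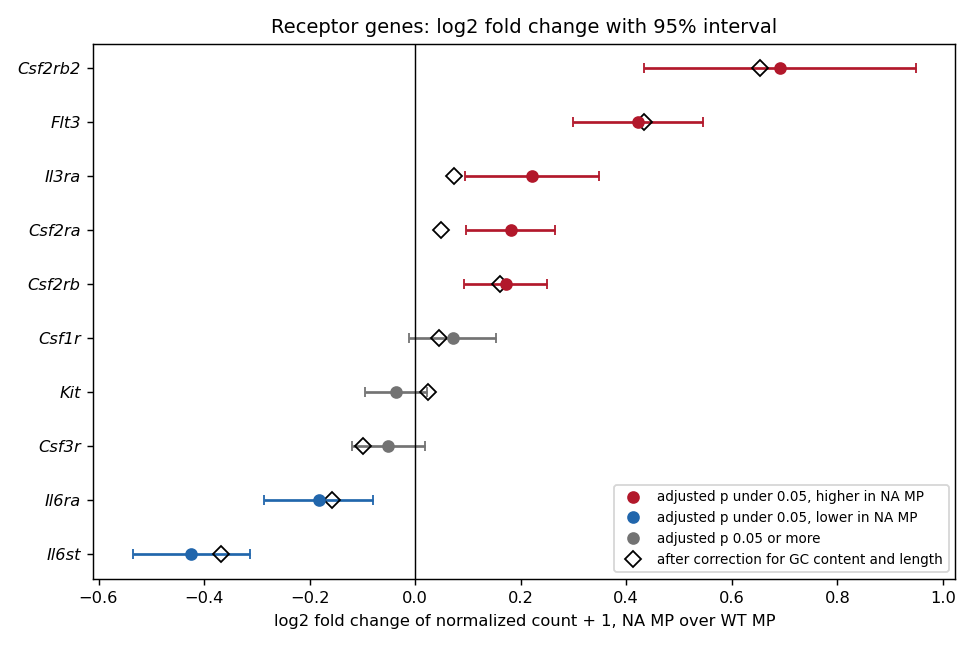
Log2 fold change of normalized count + 1 in NA MP over WT MP (horizontal axis) for each receptor, with 95% intervals from limma, coloured by whether the adjusted p was under 0.05, and open diamonds for the value after correction for GC content and length. Csf2rb2 (0.69) and Flt3 (0.42) lie highest and Il6st (-0.42) lowest, and the diamonds of Csf2ra and Il3ra lie outside their intervals, nearer to 0, and that of Kit (0.024) lies just above its interval.

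Levels of different genes were compared per kb of exon. In WT MP the order was Csf3r (383 ± 5.39 normalized counts per kb, SD, n = 5), Kit (341 ± 4.76), Csf2ra (288 ± 8.49), Csf1r (159 ± 5.40), Csf2rb (126 ± 2.81), Il3ra (92.7 ± 7.90), Flt3 (58.4 ± 4.99), Il6ra (52.8 ± 1.64), Il6st (39.7 ± 1.66) and Csf2rb2 (18.7 ± 3.62). Flt3 and Il6ra overlapped in their sample values, and all other neighbours in this order were separate. In NA MP (n = 4) Flt3 rose to 78.3 ± 6.90 and Il6ra was at 46.6 ± 2.52, so that this pair no longer overlapped. Csf2rb2 (30.1 ± 4.74) and Il6st (29.6 ± 2.07), the lowest genes of the set, came to lie within each other's spread. Csf3r (350 to 382 over the samples), Kit (315 to 351) and Csf2ra (298 to 350.4) overlapped as neighbours in NA MP.

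**Figure D3:**
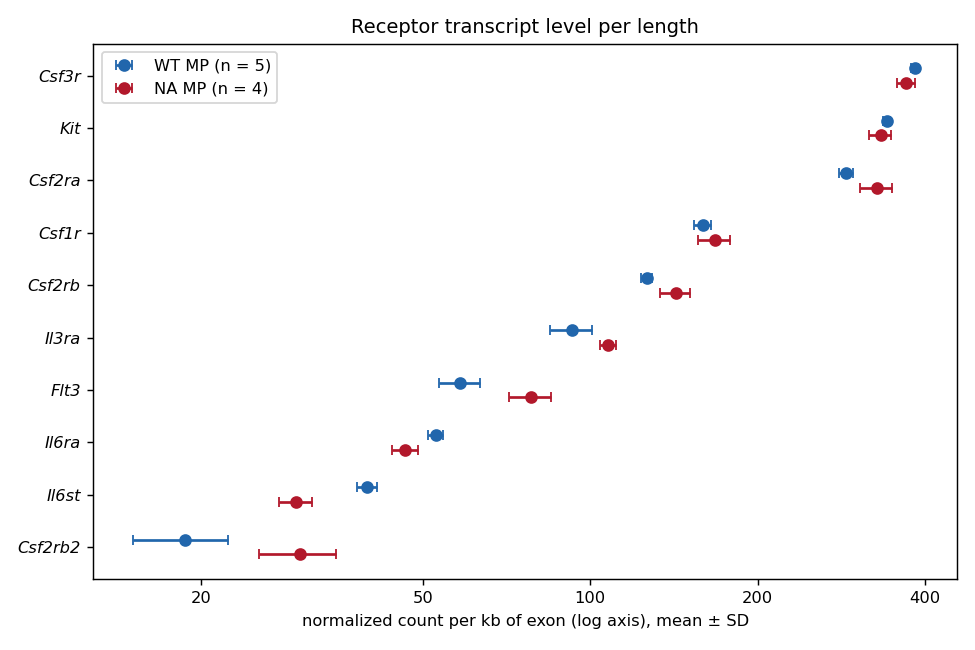
Normalized count per kb of exon (log axis) for each receptor, mean ± SD, in WT MP (blue, n = 5) and NA MP (red, n = 4), ordered by the WT MP level. Csf3r and Kit are highest and Csf2rb2 lowest in WT MP, and Csf2rb2 and Il6st meet near 30.1 and 29.6 in NA MP.

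Ratios within a sample do not depend on scaling between samples, and 6 of them were tested (exact permutation, two-sided). Il6ra to Il6st, the ligand-binding to the signalling chain, was higher in NA MP by 0.24 on the log2 scale (0.29 ± 0.069 against 0.05 ± 0.066, SD, n = 4 and 5, exact permutation p = 0.0159, adjusted over the 6 ratios 0.0476). Flt3 to Kit was higher by 0.46 (p = 0.0159, adjusted 0.0476, exact permutation test), and neither of these ratios overlapped between groups. Csf2rb2 to Csf2rb was higher by 0.52 and Csf1r to Csf3r, the monocyte against the granulocyte factor receptor, by 0.12 (p = 0.0317 and adjusted 0.0476 for each, exact permutation test), with overlapping groups in both. For the alpha to beta chain ratios no difference passed the test. Csf2ra to Csf2rb was -0.14 ± 0.10 in NA MP and -0.15 ± 0.054 in WT MP (p = 0.873, exact permutation test). Il3ra to the sum of both beta chains was -1.88 ± 0.11 and -1.87 ± 0.088 (p = 0.952, exact permutation test). After the correction for GC content and length the differences in these ratios were -0.11 and -0.14 (adjusted p = 0.0952 and 0.143, exact permutation test). With 1 sample left out, no ratio passed after adjustment, the adjusted p of the 4 that had passed ranging from 0.0571 to 0.107 at like differences, in designs whose smallest p is larger.

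**Figure D4:**
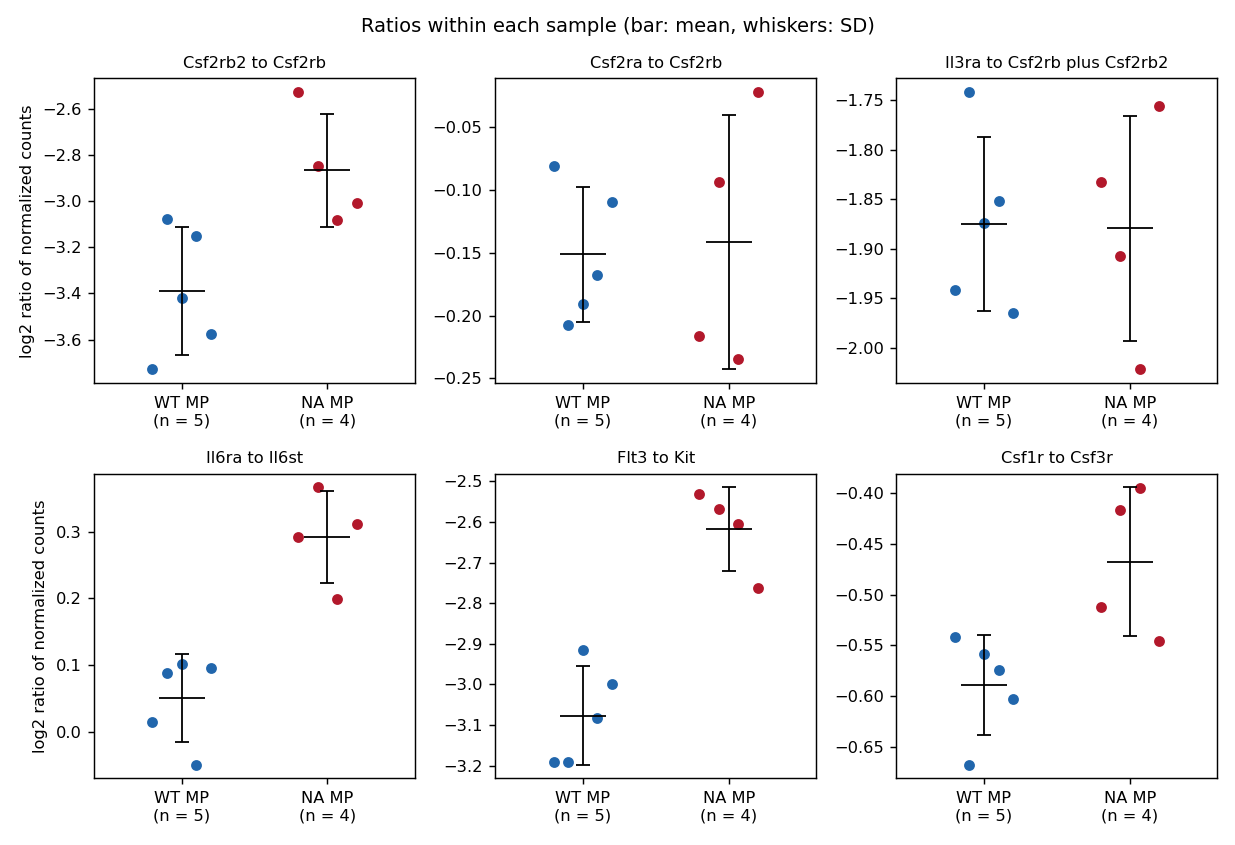
Log2 ratio of normalized counts for 6 receptor pairs (vertical axes, which do not start at 0) in each WT MP (blue, n = 5) and NA MP (red, n = 4) sample, with bars for the mean and whiskers for the SD. The groups separate for Il6ra to Il6st and Flt3 to Kit and intermingle for Csf2ra to Csf2rb and Il3ra to Csf2rb plus Csf2rb2.

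The replicates varied more in NA MP than in WT MP for 8 of the 10 receptors. Set against counting error alone (chi-square of the recovered reads per degree of freedom, where 1 means no more than counting error), the median over the receptors was 3.53 in NA MP and 0.756 in WT MP. Kit had the largest value in NA MP, 5.43, and Csf2rb2 in WT MP, 3.44. Over the tested genes the spread was also mostly larger in NA MP. Pairs of NA MP samples gave 1.63 to 2.84 and pairs of WT MP samples 1.2 to 1.71 per degree of freedom. These values pool genes within pairs of samples, so their size cannot be set against the medians of the receptors. The contrast between NA MP and WT MP in spread was not tested.

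Genes around the receptors were counted by lists. Of 12 ligands, 11 were in the table and only Csf1 (M-CSF) and Osm (oncostatin M, which signals through Il6st) passed the filter. Osm averaged 172 in NA MP and 64.1 in WT MP (log2 fold change 1.34, adjusted p = 0.0156), without overlap. The oncostatin M receptor gene Osmr was listed at 0 in all 9 samples. The LIF receptor gene Lifr averaged 5.69 in NA MP and 4.75 in WT MP and did not pass the filter. Csf1 averaged 79.2 and 61.2 (0.39, adjusted p = 0.0195) and lost its call without NA MP replicate 1 or 3 or WT MP replicate 1 or 5 (adjusted p up to 0.0857) and with the replicate number as a block (0.06375). Csf2 and Il3 were listed at 0 in all 9 samples.

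Janus kinases and STAT factors, which carry the signal of the cytokine receptors, had 5 of 11 genes higher and 0 lower, beside 16.9% and 17.3% of all tested genes. The median of the list was -0.03. Jak3, the kinase bound to the common gamma chain, rose by 0.48 (adjusted p = 2.17e-12). STAT genes rose by 0.33 (Stat4), 0.28 (Stat3), 0.16 (Stat5a) and 0.15 (Stat5b), all without overlap between groups. These 5 passed under all 19 alternatives run for single genes. Jak1 (-0.03) and Jak2 (-0.04), the kinases bound to gp130 and the beta chains, did not pass (adjusted p = 0.540 and 0.542).

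Adaptors and kinases next to the receptors had 7 higher and 4 lower of 26, with a median of 5.36e-04, beside 16.9% higher and 17.3% lower among all tested genes. Fyn, a Src family kinase, rose by 0.61 (adjusted p = 1.70e-09), and Grb2, the adaptor that brings Sos1 to the receptor, rose by 0.18. Sos1, the Ras exchange factor, fell by 0.31 (adjusted p = 5.11e-05) and Ptpn11, a phosphatase that aids Ras signalling, by 0.16. Fgr, another Src family kinase, was at 0.81 (adjusted p = 0.0204) and the adaptor Gab2 at 0.17 (adjusted p = 0.0176), but Fgr lost its call without NA MP replicate 2 or 3 or WT MP replicate 1 (adjusted p up to 0.0941) and Gab2 without NA MP replicate 3 or 4 (up to 0.125).

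Inhibitors of receptor signalling had 4 higher and 2 lower of 20, with a median of 0.08, a share near the 34.3% of all tested genes that passed. Socs3, the feedback inhibitor that binds gp130, averaged 23.4 in NA MP and 7.88 in WT MP (log2 fold change 1.36, adjusted p = 4.38e-04). Its samples ran from 11.1 to 34.5 in NA MP and from 4.32 to 10.25 in WT MP. Socs3 thus passed the filter on low values through the NA MP samples, and its direction followed from the filter. Dok2, a docking protein that restrains Ras, rose by 0.82 (adjusted p = 8.51e-09), and the phosphatases Ptprc (CD45) and Inpp5d (SHIP1) rose by 0.26 and 0.13. Cbl, which tags Kit and other receptors for degradation, fell by 0.26 (adjusted p = 0.00341). Rasa1, a Ras inhibitor, was at -0.15 (adjusted p = 0.0332) and lost its call after the correction for GC content and length (-0.06, adjusted p = 0.435), with no filter on low values, and without NA MP replicate 2, 3 or 4 or WT MP replicate 3 or 4.

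Transcriptional targets of these receptors had 9 higher and 2 lower of 16, with a median of 0.33, against the same background of 16.9% and 17.3%. Fos (2.90, adjusted p = 3.72e-04), Egr1 (2.80, adjusted p = 0.0109) and Junb (1.53, adjusted p = 0.00131) are immediate early genes, which many stimuli other than these receptors, cell handling included, also induce. Dusp6, a phosphatase induced by ERK, rose by 0.93 (adjusted p = 9.60e-14), Pim1, a kinase induced by STAT5, by 0.73 and the survival gene Mcl1 by 0.47. Transcription factors known to act on receptor genes had 4 higher and 4 lower of 14, with a median of -0.03, beside the same background. Hoxa9 rose by 2.03 (adjusted p = 8.68e-28) and Gata2 by 0.43, while Tal1 fell by 0.53 and Gata1 by 0.49. Spi1 (PU.1), an activator of Csf1r, Csf2ra and Csf3r, was at 0.14 (adjusted p = 9.29e-04) and lost its call after the correction for GC content and length (0.06, adjusted p = 0.128). Cebpe was at -0.22 (adjusted p = 0.0181) and lost its call without NA MP replicate 1 or 4.

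Of 38 other cytokine and growth factor receptors, 27 were tested, with 9 higher, 7 lower and a median of 0.02. Among all tested genes, 16.9% were higher and 17.3% lower. Il7r, the IL-7 receptor of B lineage progenitors, averaged 47.2 in NA MP and 5.06 in WT MP (log2 fold change 2.99, adjusted p = 2.07e-13). Il7r passed the filter on low values only through the NA MP samples, so its direction was fixed by the filter. Axl (1.86, adjusted p = 7.16e-06) and Pdgfrb (1.06, adjusted p = 4.42e-18), both receptor tyrosine kinases, rose more than any of the 10 receptors. Tek, the angiopoietin receptor, fell by 1.86 and Tgfbr3, a co-receptor of TGF-beta, by 1.19. Tek ran from 7.44 to 14.4 in NA MP and from 32.4 to 47.9 in WT MP. It passed the filter through the WT MP samples, the group where it was higher, which favoured a fall.

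**Figure D5:**
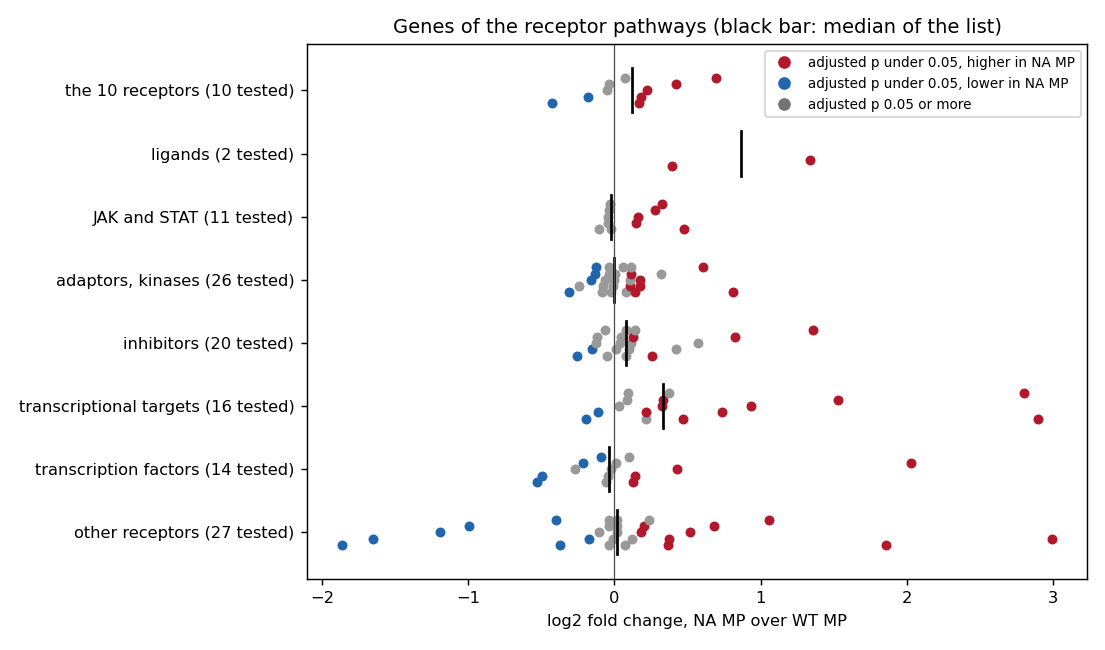
Log2 fold change in NA MP over WT MP (horizontal axis) of every tested gene in the list of receptors and in 7 lists of related genes, coloured by whether the adjusted p was under 0.05 and in which direction, with a black bar at the median of each list. The targets have a median of 0.33 and reach 2.90 (Fos), the other receptors run from -1.86 (Tek) to 2.99 (Il7r), and the 10 receptors lie between -0.42 and 0.69.

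The 250 bases before the start were taken from RefSeq (GRCm38.p6) for 8 of the 10 genes, Csf1r and Csf2rb not among them. A few short motifs were searched on both strands, and different motifs may overlap. The PU.1 core GAGGAA was present before Il6ra, Csf3r, Kit, Csf2rb2 and Csf2ra, and in 23.3% of all 32851 promoters. The STAT motif TTCNNNGAA occurred before Csf2rb2 (7.02% of all promoters), the C/EBP motif TTGCNNAA before Il3ra (9.56%) and the GATA motif AGATAA before Il6ra (9.99%). The HOX with MEIS motif TGATTTAT (0.837%) occurred before none of the 8. The windows of the gene that rose most and of the gene that fell most are printed 5′ to 3′ in the sense of the gene, with matches in capitals, for Csf2rb2 at chr15:78305722-78305971 (minus strand) and Il6st at chr13:112463820-112464069 (plus strand).
Csf2rb2: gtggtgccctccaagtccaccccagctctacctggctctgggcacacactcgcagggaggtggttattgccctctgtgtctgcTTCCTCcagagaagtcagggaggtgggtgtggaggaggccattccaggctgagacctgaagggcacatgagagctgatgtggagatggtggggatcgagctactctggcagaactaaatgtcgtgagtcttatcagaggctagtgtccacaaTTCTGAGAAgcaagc
Il6st: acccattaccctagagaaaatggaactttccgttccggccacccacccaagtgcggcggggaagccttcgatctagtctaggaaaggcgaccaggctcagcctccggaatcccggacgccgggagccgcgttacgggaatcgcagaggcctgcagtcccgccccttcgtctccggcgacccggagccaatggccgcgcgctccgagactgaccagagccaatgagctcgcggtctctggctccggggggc
These matches are a description of the letters, and binding was not measured. Flt3 and Il6st held no match to any of the motifs.

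Genes with the most alike pattern were sought for Csf2rb2 and Il6st, by Pearson's r of log2 values over the 9 samples. These include the group difference, so the direction of the genes found follows from how they were chosen. For Csf2rb2 they were Cd27 (r = 0.982), S1pr1 (0.973) and Dtx3l (0.968), which were higher in NA MP by 0.17, 0.70 and 0.20 on the log2 scale; the call of Cd27 ended with the correction for GC content and length. For Il6st they were Slc6a15 (r = 0.984), Sdc1 (0.978) and Gm15910 (0.978), which were lower, with Sdc1 averaging 9.69 in NA MP and 23.6 in WT MP. Slc6a15 averaged 1.09 in NA MP and 22.1 in WT MP, and Gm15910 0.278 and 15.5. Both were near 0 in NA MP and passed the filter only through the WT MP samples.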

How the data were processed

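Bulk polyA RNA was sequenced (Truseq libraries, NextSeq 500) from 4 NA MP and 5 WT MP samples, grouped by their labels. The deposited values are a signal per gene that the authors made with RSEM on mm10 and divided by 1 factor per sample, although the table is described as raw: 97.3% to 97.7% of the values above 0 are whole multiples (within 0.02) of 1 step per sample. The RSEM version and the annotation are not given in the sources used here. Because the values are not raw counts, limma 3.58.1 (R 4.3.3; trend, robust) was run on log2(value + 1) in place of the planned count model, for genes at 10 or more in at least 4 samples, calling genes at a Benjamini-Hochberg adjusted p under 0.05. The pseudocount of 1 shrinks the fold changes of low genes. Ratios had 0.5 added and were compared by exact permutation tests over 126 regroupings (scipy 1.17.1). The correction for GC content and length removed a smooth trend on both from each sample's log2 values (mgcv 1.9.3).

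Coordinates, exonic length, GC content and overlaps came from GENCODE M21 (GRCm38), and symbols matched 32916 genes. In data simulated for this comparison with 200 changed genes among 11857, 90.5% were recovered (62% at a fold of 1.2) and 4.74% of calls were false. The simulation gave all genes in both groups the same spread beyond counting error and changed only genes above a minimum mean. In the data 34.3% of tested genes were called and the spread was larger in NA MP, so these rates need not hold for them. Replicate numbers 1 to 4 occur in both groups, and a fit with that number as a block was an alternative. Named were all 10 receptors, the called genes of each list by size of change up to 6, for some lists with the values of other members chosen after they were seen, and the 3 genes most like the receptors that rose and fell most. The receptors, lists and tests were chosen with earlier results of these data known. Some genes of the lists are not reported here by name.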

Additional observations from a re-analysis of the deposited data

Results flagged for a closer look

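Among 34 groups of values examined (the receptors, the ratios and the sum in each group of samples), 3 held a sample far from the others by Dixon's 95% criterion, where chance gives about 1.7. Il3ra in NA MP replicate 3 was at 304 normalized counts, under 324 to 327 in the other 3 NA MP samples. Il6ra in WT MP replicate 1 was at 432, under 457 to 467 in the other WT MP samples. Il6st in WT MP replicate 4 was at 473, above 427 to 436 in the others. Without the sample concerned, the log2 fold changes of these genes kept their direction and stayed past the threshold.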

How the results depend on the processing

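Flt3, Csf2rb, Csf2rb2, Il6ra and Il6st kept their direction and call under all 19 alternatives run for single genes (scaling, filter, pseudocount, rounding, robustness, replicate block, GC and length, each sample left out). Of the alternatives, pseudocounts of 0.5 and 5, rounding and the corrected ratios were chosen after seeing the data. Against a fold of 1.2, 857 genes and 2 receptors passed, and at 0.01 the same 7 receptors. The correction for GC content and length turned Kit to 0.024 and the ratio of Csf2ra to Csf2rb to -0.11 and moved the ratio of Il3ra to both beta chains to -0.14, none of them passing the test. Leaving out 1 sample gave 3549 to 3937 genes and 7 to 8 receptors past the threshold. The log2 differences of the ratios then ran from 0.41 to 0.60 (Csf2rb2 to Csf2rb), -0.030 to 0.041 (Csf2ra to Csf2rb), -0.046 to 0.043 (Il3ra to both beta chains), 0.22 to 0.27 (Il6ra to Il6st), 0.43 to 0.51 (Flt3 to Kit) and 0.097 to 0.15 (Csf1r to Csf3r).

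The replicate numbers did not pair the samples: deviations of same-numbered samples correlated at -0.0204 to 0.0573, and only NA MP replicate 4 correlated best with its own number. With the replicate number as a block, 3693 genes and the same 7 receptors passed. The planned count-model alternatives, TMM scaling among them, were not run because the values are not raw counts. Precision was lowest for Csf2rb2, which rested on as few as 63 reads in a sample.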
